A study of Mus musculus with 4 samples.

Results

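The peaks described here are the places where a FLAG-tagged protein library, EGFP_OK, gave a ChIP-seq peak that neither the Pax6 nor the Etv6 library shared, outside H3K4me2 but in its neighbourhood. A peak qualified if it lay on chromosomes 1 to 19, overlapped no Pax6 or Etv6 peak by as much as 1 bp, and had its summit outside every H3K4me2 peak but at most 50 kb from the nearest edge of one. Of the 28376 EGFP_OK peaks, 13902 met this rule, which is 49.0% (95% interval 48.4 to 49.6). They are called the near peaks below. They made up 65.3% (64.7 to 65.9) of the 21289 EGFP_OK-only peaks on chromosomes 1 to 19, beside 3014 peaks with their summit inside H3K4me2 and 4373 peaks farther than 50 kb from it. The positions of the lists chose the near peaks, so their lack of a partner, of H3K4me2 and of larger distances is a description and not a finding.

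ChIP-seq was carried out on ES-derived neural progenitor-like cells (strain 129/SvJ, passages 15 to 18) grown in medium with EGF and FGF-2 at 10 ng/ml each. For EGFP_OK, Pax6 and Etv6 the FLAG tag was precipitated with antibody M2, and for H3K4me2 the histone mark itself, dimethylated lysine 4 of histone H3. Each group had 1 library, without replicates or a control, so no test between groups was possible, and all intervals are 95% intervals that cover counting error only. The titles name N31 and EGFP for the EGFP_OK library, NS and the factor for the Pax6 and Etv6 libraries, and N31, Oct4, EGFP and 0 hr for the H3K4me2 library. The sources used here do not name the protein that carried the tag in EGFP_OK. The N31 and NS labels fall together with the libraries compared, so cells and tagged proteins cannot be told apart. No expression was measured, so the labelled cell type could not be checked against its markers.

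H3K4me2 lies at active and poised promoters and enhancers, and its peaks outline the regulatory regions a cell has open or in reserve. Sequence-specific factors mostly bind inside such regions, and binding outside them is known for factors that can engage closed chromatin, for weak or brief contacts, and for regulatory elements that lack this mark. Pax6 is a paired-box factor needed for eye and forebrain development, and Etv6 is an ETS-family factor known as a repressor. All positions are in mouse build mm9. No genome or gene annotation of that build was used here, so the peaks are given by position and H3K4me2 context and not by gene or sequence.

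The density of near peaks changed little with distance from H3K4me2. Between 0 and 5 kb from an H3K4me2 edge there were 10.0 EGFP_OK-only summits per Mb (9.72 to 10.4, 3814 peaks on 380.2 Mb), and between 45 and 50 kb there were 10.7 per Mb (9.79 to 11.7, 482 peaks on 44.9 Mb). In the 10 rings of 5 kb from the edge to the limit, the density stayed between 9.42 per Mb (8.60 to 10.3) at 40 to 45 kb and 11.01 per Mb (10.4 to 11.6) at 15 to 20 kb. The intervals of those 2 rings did not overlap, but the rings showed no steady rise or fall with distance. The sequence within 10 kb of an edge held 46.3% of the near peaks (45.4 to 47.1) and made up 46.6% of the sequence within 50 kb. The median near summit lay 11.3 kb from an edge (11.01 to 11.7), and the median position of that sequence lay 11.2 kb from one. The H3K4me2 peaks lay at lower coordinates than the summit for 49.8% of the near peaks (48.9 to 50.6). Coordinates follow no gene direction, so this even split says nothing about a preferred side.

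The density ratio of 0 to 5 kb against 45 to 50 kb was 0.935 (0.850 to 1.03). It was 0.857 (0.779 to 0.946) with partners up to 1 kb away counted as shared, and 0.861 (0.751 to 0.990) with EGFP_OK peaks of a score of at least 100, and both of these intervals lie below 1. This profile differed from that of the Etv6-only peaks chosen in the same way, of which 6665 lay in the same sequence. Their density was 5.83 per Mb (5.59 to 6.08) within 5 kb of an edge and 3.56 per Mb (3.03 to 4.16) at 45 to 50 kb. Of these Etv6-only summits, 54.5% (53.3 to 55.7) lay within 10 kb of an edge, with a median distance of 8.79 kb (8.46 to 9.05). The 2263 Pax6-only peaks, from a library with fewer kept tags, ran from 1.74 per Mb (1.61 to 1.88) to 1.42 per Mb (1.10 to 1.82), with overlapping intervals. With peaks shared with Pax6 or Etv6 put back, the unmarked EGFP_OK summits had 11.6 per Mb within 5 kb and 11.5 per Mb at 45 to 50 kb, and the unmarked Etv6 summits had 10.2 and 6.75.

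The level changed at the H3K4me2 edge itself and again beyond 50 kb. Inside H3K4me2 peaks there were 32.2 EGFP_OK-only summits per Mb (31.04 to 33.3), against 10.3 per Mb (10.2 to 10.5) over the whole 50 kb around them. Leaving out shared peaks lowers the value inside more than the value around, and with them put back the EGFP_OK densities were 80.7 per Mb (78.9 to 82.6) inside and 11.5 per Mb (11.3 to 11.7) around. Inside H3K4me2 the Etv6-only density was 79.3 per Mb (77.5 to 81.1), against 4.95 per Mb (4.84 to 5.07) around it, and with shared peaks 169.96 (167.3 to 172.6) and 8.79 (8.63 to 8.95). The EGFP_OK-only density then fell to 8.96 per Mb (8.51 to 9.43) at 50 to 75 kb, 7.78 (7.26 to 8.33) at 75 to 100 kb, 5.32 (5.03 to 5.62) at 100 to 200 kb and 1.72 (1.60 to 1.84) farther out. The share of mappable sequence in each ring was not measured, and its part in the outermost values was not tested. The sequence within 50 kb of H3K4me2, without the H3K4me2 peaks, was 1346 Mb or 55.8% of the sequence spanned by the lists.

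**Figure D1:**
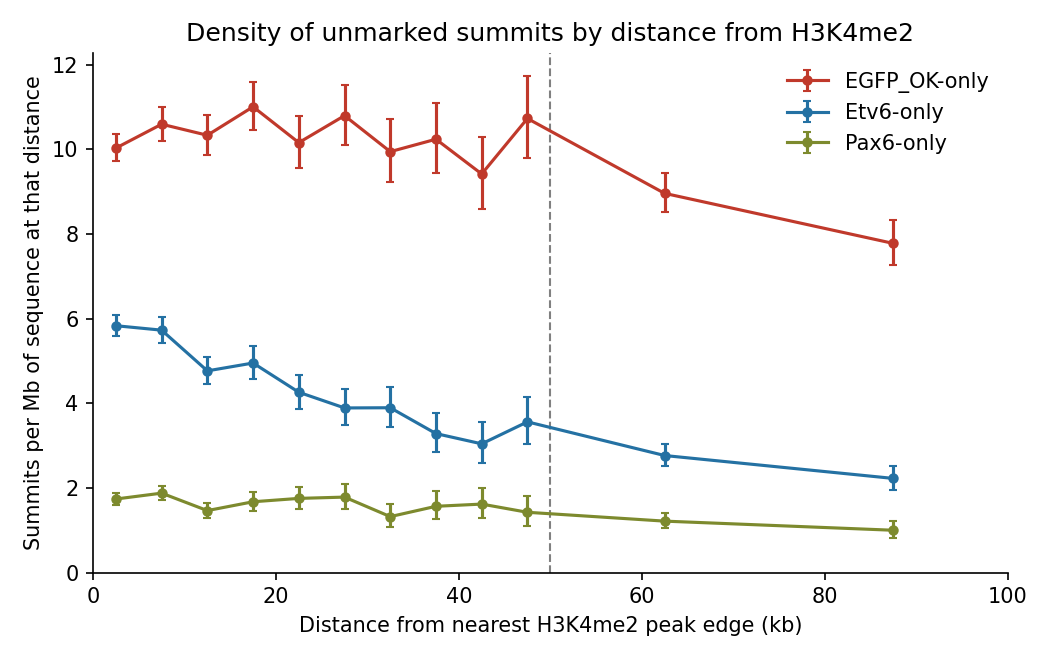
Summits per Mb of sequence (vertical axis) at each distance from the nearest H3K4me2 edge (horizontal axis, kb) for EGFP_OK-only, Etv6-only and Pax6-only peaks outside H3K4me2; points stand at ring midpoints, bars are exact 95% Poisson intervals, and the dashed line marks the 50 kb limit. The EGFP_OK-only points stay between 9.42 and 11.01 per Mb up to the limit, whereas the Etv6-only points go from 5.83 to 3.56 per Mb.

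The near peaks were about as strong as other EGFP_OK peaks. Fold enrichment is the peak caller's own value, the summit against the background it estimates nearby in the same library. Its median was 7.22 (7.12 to 7.27), with a middle range from 5.95 at the lower quartile to 9.11 at the upper and extremes of 2.81 and 24.3. EGFP_OK-only peaks beyond 50 kb also had a median of 7.22 (7.07 to 7.38), and those inside H3K4me2 had 6.42 (6.32 to 6.53). A fold of at least 10 was reached by 2514 near peaks or 18.1% (17.4 to 18.7), against 16.5% of all EGFP_OK peaks on chromosomes 1 to 19, by 17.5% (16.4 to 18.7) of the peaks beyond 50 kb and by 10.9% (9.86 to 12.1) of those inside H3K4me2. At a fold of at least 20 there were 27 near peaks, or 0.194% (0.128 to 0.282), below the 0.321% of all EGFP_OK peaks. Peaks shared with Pax6 or Etv6 had a lower median fold, 6.50 (6.42 to 6.57), and a lower share at 10 or more, 14.8% (13.9 to 15.7), but a higher one at 20 or more, with 58 of 6441 or 0.900% (0.684 to 1.16).

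Tag counts and widths ordered the classes differently from fold. In tags the near peaks were level with those inside H3K4me2 and above those beyond 50 kb. The median near peak held 48 tags (47 to 48) over 1133 bp (1127 to 1138), and the middle range ran from 35 to 71 tags. The peaks beyond 50 kb were a little smaller, with 42 tags (41 to 43) over 1084 bp (1072 to 1093), and those inside H3K4me2 had 48 tags (47 to 49) over 1173 bp (1161 to 1187). The caller's score, 10 times the −log10 of its p-value, was at least 100 for 6524 near peaks or 46.9% (46.1 to 47.8), against 45.5% of all EGFP_OK peaks and 38.7% (36.9 to 40.4) of those inside H3K4me2. All near peaks together held 837920 tags on 16.7 Mb, which is 47.8% of the tags in EGFP_OK peaks and 3.90% of the tags kept for the library.

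Strength changed only a little with distance from H3K4me2, with slightly higher folds and slightly lower tag counts away from the edge. The median fold was 7.02 (6.76 to 7.12) for the 843 near peaks within 1 kb of an edge and 7.06 (6.97 to 7.18) at 2 to 5 kb. It was 7.32 (7.18 to 7.43) at 10 to 20 kb, 7.42 (7.23 to 7.51) at 20 to 30 kb and 7.30 (7.06 to 7.43) at 40 to 50 kb. The intervals at 10 to 20 kb and at 20 to 30 kb did not overlap that within 1 kb. The share with a fold of at least 10 was 15.2% (12.8 to 17.8) within 1 kb and 19.9% (18.2 to 21.8) at 20 to 30 kb. The median tag count was 49 (47 to 51) within 1 kb, 52.5 (50 to 55) at 1 to 2 kb and 45 (43 to 47) at 40 to 50 kb. The intervals at 1 to 2 kb and at 40 to 50 kb did not overlap.

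**Figure D2:**
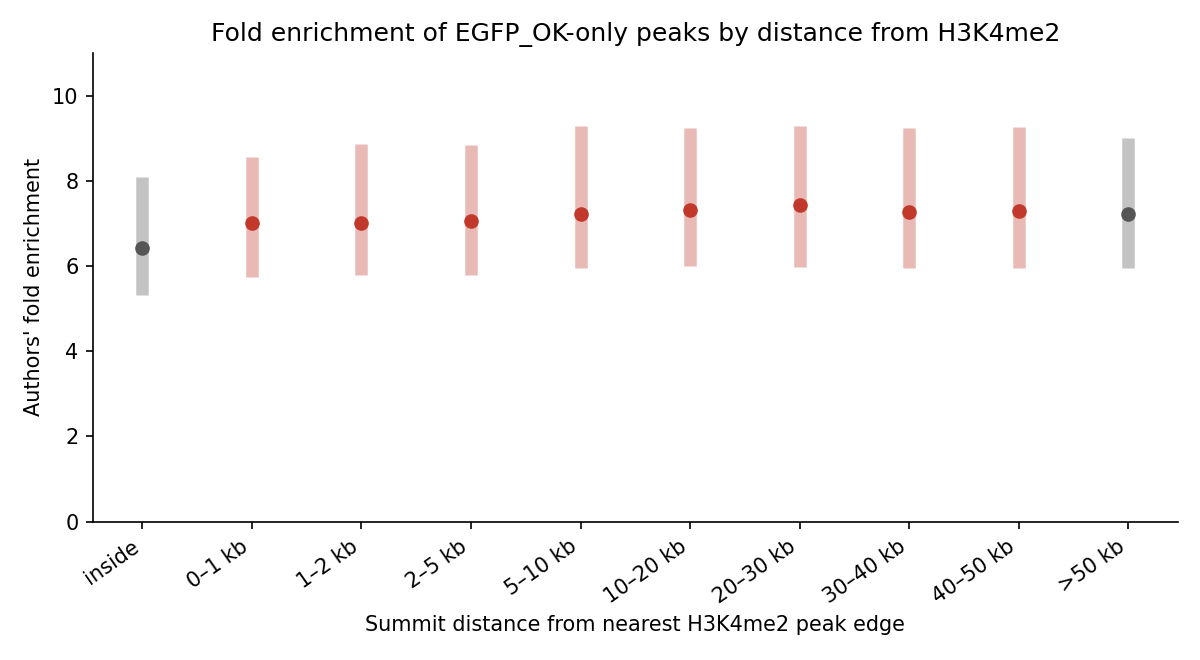
Authors' fold enrichment (vertical axis) of EGFP_OK-only peaks by distance of the summit from the nearest H3K4me2 edge; dots are medians, thick bars run from the lower to the upper quartile, red marks the near peaks and grey the peaks inside H3K4me2 or beyond 50 kb. The red medians lie between 7.02 and 7.42, above the 6.42 of peaks inside H3K4me2 and level with the 7.22 of peaks beyond 50 kb.

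Near peaks were for the most part clear of H3K4me2 with their whole width, and lay in long unmarked stretches. The body of 532 near peaks, or 3.83% (3.51 to 4.16), reached into an H3K4me2 peak although the summit did not. An H3K4me2 peak lay within 50 kb on both sides of 53.7% (52.9 to 54.6). The stretch between the flanking H3K4me2 peaks had a median of 61.8 kb (60.6 to 62.9), against 15.2 kb (15.0 to 15.4) over all stretches between neighbouring H3K4me2 peaks. Longer stretches hold more sequence and so more summits, so a stretch picked by a summit is longer than the median stretch also for evenly spread peaks.

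The H3K4me2 peaks nearest to the near peaks numbered 10416 of 48520, or 21.5% (21.1 to 21.8), and were somewhat narrower with fewer tags than the rest, at the same fold. Their median width was 1530 bp (1510 to 1550) with 97 tags (95 to 100), against 1673 bp (1661 to 1683) and 129 tags (127 to 130) for H3K4me2 peaks nearest to no near peak. The median fold was 5.82 in both sets. H3K4me2 peaks nearest to Etv6-only summits were also small, with 1568 bp (1543 to 1598) and 104 tags (101 to 108). Of the 10416, 74.8% (74.0 to 75.7) were nearest to 1 near peak and 6.21% (5.76 to 6.69) to 3 or more.

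Whether these H3K4me2 peaks were themselves occupied was then asked. The rule did not use this measure directly, but it is not independent of the rule. Near peaks could not overlap a Pax6 or Etv6 peak and had their own summits outside H3K4me2. Beside an edge this limits the summits that the adjacent H3K4me2 peak can hold. Occupancy was close to the background for EGFP_OK, Etv6 and Pax6. The nearest H3K4me2 peak held an EGFP_OK summit for 2352 near peaks or 16.9% (16.3 to 17.6), against 15.5% of all H3K4me2 peaks. With EGFP_OK peaks of a score of at least 100 alone, which lowers the number of summits that can be held, the share was 8.58% (7.91 to 9.29). In the full lists the nearest H3K4me2 peak held an Etv6 summit for 29.9% (29.2 to 30.7), against 32.3%, and a Pax6 summit for 16.3% (15.7 to 17.0), against 14.7%. Counted over the 10416 H3K4me2 peaks, the shares were 16.5%, 30.7% and 16.4% in that order. At matched widths the EGFP_OK and Pax6 shares lay above the background, though with overlapping intervals for Pax6 up to 1 kb, and the Etv6 intervals overlapped at each width. These shares count an H3K4me2 peak once for each near summit next to it, and the background counts it once. Counted once each, the H3K4me2 peaks over 2 kb wide held an EGFP_OK summit in 27.6% (26.1 to 29.2), which overlaps the background. At 1 to 2 kb the EGFP_OK share counted this way stayed above without overlap, with 13.4% (12.5 to 14.5) against 10.9% (10.5 to 11.3). Up to 1 kb it did so too, with 7.37% (6.38 to 8.46) against 5.83% (5.37 to 6.33). The Pax6 share counted this way stayed above over 2 kb, with 27.9% (26.4 to 29.5) against 24.0% (23.4 to 24.6), and overlapped up to 1 kb. Per near summit, for H3K4me2 peaks over 2 kb wide, an EGFP_OK summit was held next to 28.9% of near peaks (27.6 to 30.3) against 26.1% (25.5 to 26.8) of all, a Pax6 summit next to 28.4% (27.1 to 29.8) against 24.0% (23.4 to 24.6), and an Etv6 summit next to 50.5% (48.97 to 52.0) against 51.5% (50.8 to 52.2).

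Beside the closest near peaks the share of H3K4me2 peaks with an EGFP_OK summit was lower. Where the near peak lay within 5 kb of the H3K4me2 edge, that H3K4me2 peak held an EGFP_OK summit in 11.2% of cases (10.3 to 12.3), below the background, and where it lay at 5 to 10 kb, in 21.5% (19.97 to 23.2). At 30 to 50 kb the share was 17.6% (16.0 to 19.2). The share was also lower at each H3K4me2 width, with 4.14% (2.90 to 5.71) against a background of 5.83% (5.37 to 6.33) up to 1 kb, where the intervals overlapped, 7.97% (6.71 to 9.39) against 10.9% (10.5 to 11.3) at 1 to 2 kb, and 19.8% (17.7 to 22.1) against 26.1% (25.5 to 26.8) over 2 kb. Around near peaks the Etv6 share showed no such dip, at 32.2% (30.7 to 33.7) within 5 kb and 31.7% (29.9 to 33.6) at 5 to 10 kb. Etv6-only summits had a dip of their own, and not for Etv6 alone. Within 5 kb of them 24.3% (22.5 to 26.1) of the nearest H3K4me2 peaks held an Etv6 summit, against 39.8% (37.3 to 42.4) at 5 to 10 kb. The EGFP_OK shares there were 12.3% (10.9 to 13.7) and 15.7% (13.9 to 17.8), and the Pax6 shares 12.4% (11.1 to 13.8) and 22.4% (20.2 to 24.6). The dip is thus not particular to the EGFP_OK peaks, and its cause was not tested.

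**Figure D3:**
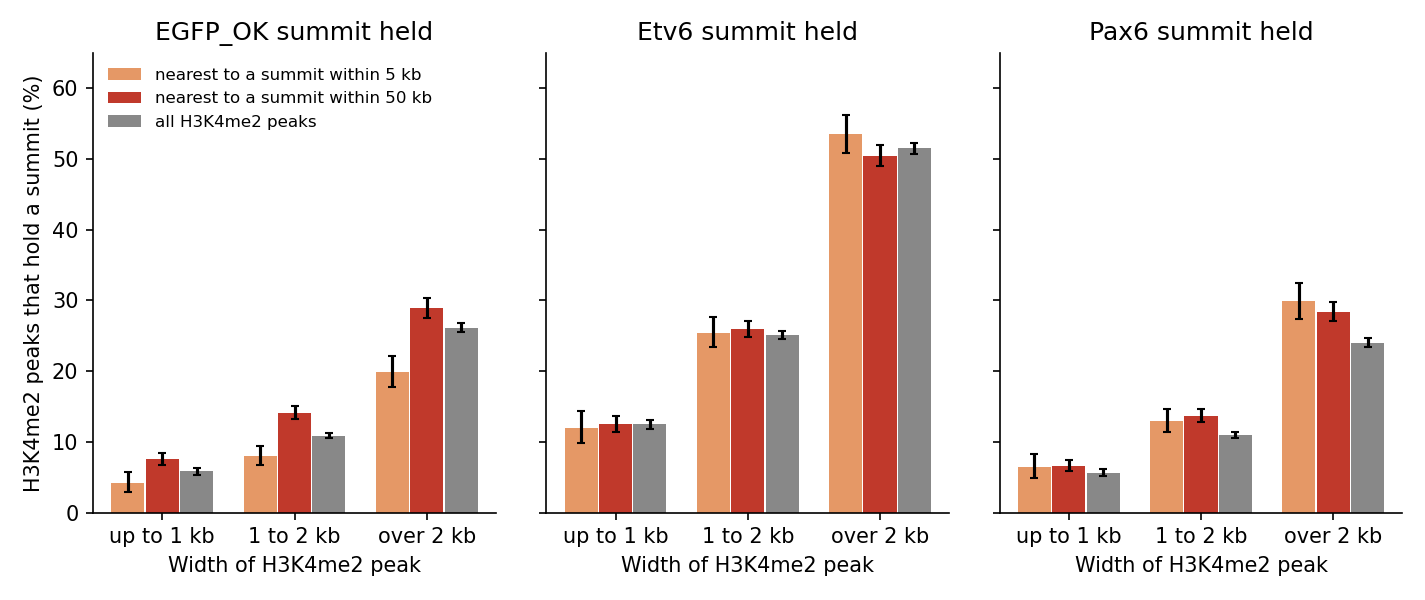
Share of H3K4me2 peaks that hold a summit of EGFP_OK, Etv6 or Pax6 (vertical axis, percent) by width of the H3K4me2 peak, for the H3K4me2 peaks nearest to near summits within 5 kb, for those nearest to near summits within 50 kb, and for all H3K4me2 peaks; bars start at 0 and whiskers are exact 95% binomial intervals. In the EGFP_OK panel the bars for summits within 5 kb lie below the grey bars at each width, whereas in the Etv6 panel the intervals of the 3 bars at each width overlap.

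The rule kept Etv6 and Pax6 peaks from overlapping the near peaks, but not from lying nearby. An Etv6 or Pax6 peak lay within 10 kb of 4808 near peaks or 34.6% (33.8 to 35.4), against 30.7% of all EGFP_OK-only peaks, 40.7% (38.98 to 42.5) of those inside H3K4me2 and 11.5% (10.6 to 12.5) of those beyond 50 kb. The median gap to the nearest Etv6 peak was 20.8 kb (20.3 to 21.5), and to the nearest Pax6 peak 38.5 kb (37.3 to 39.6). Beyond 50 kb the gap to Etv6 was 110.5 kb (103.9 to 117.7). In this share the near peaks stood between the other EGFP_OK-only classes, nearer to the one inside H3K4me2. Of Etv6-only peaks in the same sequence, 43.9% (42.7 to 45.1) had an EGFP_OK or Pax6 peak within 10 kb. Of Pax6-only peaks there, 57.1% (55.0 to 59.1) had an EGFP_OK or Etv6 peak within 10 kb. The 34.6%, 43.9% and 57.1% count peaks of different lists, of unlike size, so they do not rank these classes. For single lists, 30.9% (30.1 to 31.7) of near peaks had an Etv6 peak within 10 kb. Of Etv6-only peaks, 28.9% (27.8 to 29.96) had an EGFP_OK peak within that distance. A Pax6 peak lay within 10 kb of 19.2% (18.6 to 19.9) of near peaks and 24.7% (23.7 to 25.8) of Etv6-only peaks. An Etv6 peak within 10 kb was found for 51.4% (49.8 to 53.0) of the near peaks within 5 kb of H3K4me2. The share was 45.6% (43.6 to 47.5) at 5 to 10 kb, 17.2% (15.9 to 18.5) at 10 to 20 kb and 13.9% (12.8 to 14.9) at 20 to 50 kb. A near peak more than 10 kb from H3K4me2 can rarely have an Etv6 peak with its summit in H3K4me2 within 10 kb. The step at 10 kb, and the order of the EGFP_OK-only classes above, is thus set in part by the window. Where the nearest Etv6 peak was within 10 kb, its summit lay in H3K4me2 in 53.6% of cases (52.0 to 55.1), close to the 52.4% (51.9 to 53.0) of all Etv6 peaks.

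The lack of a Pax6 or Etv6 partner has to be read against depth. The EGFP_OK library kept 21498324 tags, the Etv6 library 24071748, the H3K4me2 library 24550365 and the Pax6 library 5288154. Scaled by kept tags, the median near peak would give 53.7 tags in the Etv6 library, where called peaks had from 18 tags with a median of 54. It would give 11.8 tags in the Pax6 library, where the weakest called peak had 10. For 37.8% (37.0 to 38.6) of the near peaks the scaled count was under that weakest Pax6 peak. At those places a Pax6 peak of equal scaled count was not detectable with this number of kept tags. For 0 of 13902 was the scaled count under the weakest Etv6 peak, but this was fixed in advance. Near peaks had at least 19 tags, and the Etv6 library kept 1.12 times as many tags as EGFP_OK. The count of 0 thus says nothing about the lack of Etv6 partners.

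Most near peaks, 61.9% (61.1 to 62.7), had no other near peak within 20 kb. The classes are set by distance to H3K4me2, so peaks a few kb apart tend to fall in the same class, and the following shares are a description. The nearest other EGFP_OK peak was itself a near peak in 59.6% of cases (58.7 to 60.4), and near peaks were 50.1% of the list. It was a peak inside H3K4me2 and unshared in 12.3% (11.7 to 12.8, of 10.9% in the list), a shared peak in 22.8% (22.1 to 23.5, of 23.2%), and a peak beyond 50 kb in 5.40% (5.03 to 5.79, of 15.8%). Another EGFP_OK peak of any class lay within 20 kb of 7394 near peaks or 53.2% (52.4 to 54.0), against 49.7% of all EGFP_OK peaks. Another near peak lay within 20 kb of 38.1% (37.3 to 38.9), and of 21.5% (20.5 to 22.5) where EGFP_OK peaks of a score under 100 were left out, which leaves fewer peaks to be neighbours. Joined at steps of up to 20 kb, 8608 near peaks stood alone, 3408 stood in pairs, and 201 or 1.45% (1.25 to 1.66) stood in 39 runs of 5 or more. Peaks in those runs had a median fold of 6.88 (6.46 to 7.12), against 7.36 (7.27 to 7.43) for peaks alone, and more tags, 57 (50 to 60) against 45 (44 to 46).

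The longest run lay on chromosome 1 from 142973567 to 143042783. It held 8 near peaks between 5.27-fold and 7.66-fold with 28 to 53 tags each, 9 EGFP_OK peaks in all, 1 H3K4me2 peak and no Pax6 or Etv6 peak. Its summits were from 2.40 to 18.4 kb apart, and the members were of ordinary or low strength. The next, on chromosome 9 from 52579791 to 52649516, held 7 near peaks between 4.71-fold and 7.30-fold, 1 Pax6 peak, 1 Etv6 peak and no H3K4me2 peak. On chromosome 1 from 50954325 to 51022944 a run of 6 near peaks between 4.99-fold and 8.98-fold was interspersed with 5 H3K4me2 and 3 Etv6 peaks. These runs show the contrast within the class, since the first 2 were nearly free of other peaks and the last was not.

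Counted in fixed windows of 100 kb, at most 7 near peaks fell together, and 2 windows reached that number. On chromosome 3 the window from 118800001 to 118900000 held 7 near peaks between 5.01-fold and 9.79-fold, 2 H3K4me2 peaks and no Pax6 or Etv6 peak. On chromosome 8 the window from 75600001 to 75700000 held 7 near peaks between 5.70-fold and 10.4-fold with 2 H3K4me2 and 2 Etv6 peaks. Of the 25 windows with 6 near peaks, the one with the highest score lay on chromosome 1 from 28900001 to 29000000, with folds from 4.83 to 10.4. Around single H3K4me2 peaks, the largest number was 7 near peaks, next to a weak H3K4me2 peak on chromosome 1 from 150593272 to 150593858 with 27 tags. It had 5 near peaks at higher and 2 at lower coordinates, from 5149 to 47012 bp away. Of the 9 H3K4me2 peaks with 6 near peaks, the 4 with the highest scores were on chromosome 16 (43362276 to 43365893), chromosome 19 (16509597 to 16511188), chromosome 8 (75647362 to 75648832) and chromosome 13 (78621576 to 78623384). None of these 5 H3K4me2 peaks held an EGFP_OK summit, and the last held an Etv6 summit. Of all H3K4me2 peaks, 15.5% held an EGFP_OK summit and 32.3% an Etv6 summit, so 5 peaks are too few to show a difference.

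The 10 near peaks with the highest fold ran from 22.1 to 24.3 and from 117 to 295 tags, and lay on 9 chromosomes. They were 2.62 to 27.6 kb from H3K4me2, and 4 of them lay within 10 kb. Their nearest H3K4me2 peak held an Etv6 summit in 5 cases, an EGFP_OK summit in 2 and a Pax6 summit in 2. Over all near peaks these shares were 29.9%, 16.9% and 16.3%, and 46.3% lay within 10 kb of H3K4me2. Counts out of 10 are too few to set these peaks apart from the rest. The highest lay on chromosome 17 from 82705137 to 82706648, with 284 tags at 24.3-fold and its summit 13.3 kb from an H3K4me2 peak. A Pax6 peak began 0.754 kb from it without overlap, and the H3K4me2 peak held Etv6 and Pax6 summits. The peak on chromosome 1 from 121349756 to 121351062 had 141 tags at 23.5-fold and its summit 3.02 kb from H3K4me2. That on chromosome 9 from 41444588 to 41445881, at 22.6-fold, lay 2.62 kb away with 166 tags. The chromosome 2 peak from 115135195 to 115137078 reached 23.2-fold with 295 tags and was 15.7 kb away, and the chromosome 14 peak from 78721144 to 78722547 reached 22.8-fold with 136 tags and was 6.52 kb away. In each of these 4 cases the H3K4me2 peak held an Etv6 summit.

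The other 5 of these peaks had no Etv6 summit in the nearest H3K4me2 peak. Chromosome 12 held a peak of 266 tags (14095153 to 14096559, 22.4-fold) and one of 127 tags (41721691 to 41722985, 22.1-fold). The remaining 3 had 264 tags on chromosome 10 (83608927 to 83611209, 22.3-fold), 117 on chromosome 15 (48642241 to 48643196, 22.1-fold) and 203 on chromosome 16 (81223527 to 81224739, 22.2-fold). The chromosome 10 peak was 1.46 kb from an Etv6 peak and 1.67 kb from a Pax6 peak. The chromosome 16 peak stood apart from both, 231.1 kb from Etv6 and 426.8 kb from Pax6. Strong near peaks occurred both beside and far from peaks of the other factors.

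By score, which favours peaks with many tags, the first was a peak on chromosome 10 from 90171429 to 90173094 with a score of 1181, 318 tags and 18.5-fold, at 18.5 kb from H3K4me2 and 193.0 kb from an Etv6 peak. The second, also on chromosome 10, was at 88949433 to 88951050 (1092, 307 tags, 21.4-fold), 24.8 kb from H3K4me2. The next, on chromosome 11 from 11780842 to 11782548 (1088, 338 tags, 17.9-fold), was 29.8 kb from H3K4me2 but 0.210 kb from an Etv6 peak, and the nearest other near peak was 2765 kb away. The chromosome 12 peak at 14095153 and the chromosome 17 peak at 82705137 completed the first 5. These scores ranked between 15 and 24 in the whole EGFP_OK list.

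At the inner margin of the rule the 3 peaks had folds under the median of the near peaks, and at the outer margin the 3 peaks had folds over their upper quartile. So few peaks do not stand for their distances, where the median fold was 7.02 within 1 kb and 7.30 at 40 to 50 kb. The closest summit lay 1 bp from an H3K4me2 edge, in a peak of 28 tags at 6.32-fold (chromosome 5, 59127737 to 59128585). The next lay 2 bp away, with 37 tags at 5.20-fold on chromosome 19 (46226228 to 46227260) and with 53 tags at 4.62-fold on chromosome 6 (67408746 to 67409941). Just inside the 50 kb limit, 49997 bp away, was a peak of 32 tags at 9.46-fold (chromosome 14, 108879116 to 108879714). At 49972 bp was one of 107 tags at 12.2-fold (chromosome 5, 98184815 to 98186127), and at 49963 bp one of 94 tags at 10.9-fold (chromosome 14, 98471646 to 98473458). Just outside, at 50009 bp, was a peak of 50 tags at 4.83-fold (chromosome 3, 139521161 to 139522370). Those at 50079 and 50094 bp had 24 tags at 6.73-fold (chromosome 16, 74981307 to 74981985) and 30 tags at 7.81-fold (chromosome 14, 110290148 to 110290998).

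The density of near peaks differed more between chromosomes than it did with distance from H3K4me2. Per Mb of sequence within 50 kb of H3K4me2 it was highest on chromosome 16, at 14.6 (13.6 to 15.5), and chromosome 3, at 14.0 (13.3 to 14.8), and lowest on chromosome 7, at 6.63 (5.9996 to 7.31), and chromosome 8, at 6.92 (6.30 to 7.59). The Etv6-only peaks in the same sequence were ordered differently, with their lowest density on chromosome 14, at 2.61 (2.22 to 3.05), and their highest on chromosome 9, at 6.38 (5.79 to 7.01). There were 2.09 near peaks per Etv6-only peak over all these chromosomes, 4.02 on chromosome 14, 3.11 on chromosome 16, 3.03 on chromosome 3, 1.24 on chromosome 9 and 1.19 on chromosome 8. The median fold of the near peaks was lowest on chromosome 3, at 6.89 (6.72 to 7.04), and highest on chromosome 12, at 7.73 (7.43 to 7.85), and was 7.47 (7.31 to 7.82) on chromosome 7. Without a control library, a difference in copy number between N31 and NS cells cannot be told apart from one in binding.

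**Figure D4:**
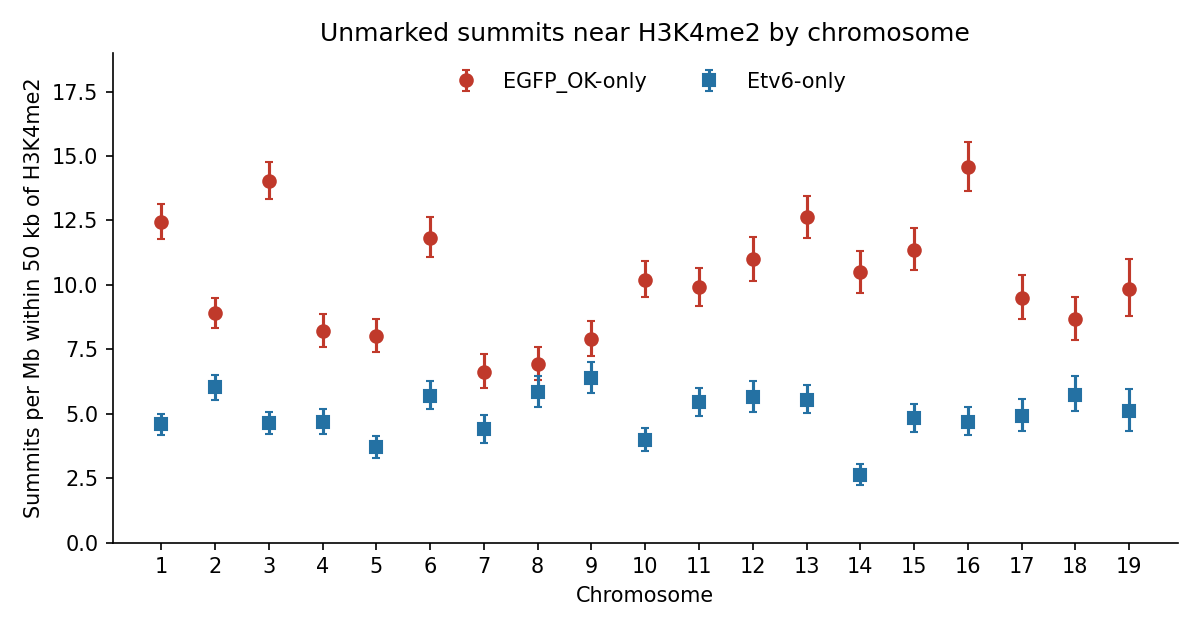
Summits per Mb of sequence within 50 kb of H3K4me2 (vertical axis) on chromosomes 1 to 19 (horizontal axis) for the EGFP_OK-only near peaks and the Etv6-only peaks chosen in the same way; bars are exact 95% Poisson intervals. The near peaks run from 6.63 per Mb on chromosome 7 to 14.6 on chromosome 16, and the Etv6-only peaks from 2.61 on chromosome 14 to 6.38 on chromosome 9.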

How the data were processed

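Each of the 4 libraries has 1 list of peaks called by MACS 1.4.2 at a p-value limit of 1e-05, with no control and at most 1 tag per position, per the file headers. CASAVA 1.8.1, BWA 0.6.2 and build mm9 are named by the submitters' processing notes. The lists give the count of tags per peak, deposited without normalization. They also give a score of 10 times the −log10 of the p-value and a fold over the local background, both the authors' own values per the file headers, used here only to describe peaks within a list. Samples were grouped by title. Python 3.11.15, numpy 2.4.6, pandas 2.3.3, scipy 1.17.1 and matplotlib 3.10.9 were used. Summits were placed at start plus summit offset minus 1. Distances ran to H3K4me2 peak edges, and gaps to Etv6 and Pax6 peaks from edge to edge. Sequence length in each ring was counted between the first and last peak of any list on a chromosome. Shares have Clopper-Pearson, medians exact order-statistic and densities exact Poisson 95% intervals. Neighbouring peaks are not independent. The rule was checked on 2000 simulated summits and returned all 2000 to their class and distance. The rule and the comparisons were chosen with earlier results of these data known. Named peaks are the 10 highest by fold and 5 by score, the 3 nearest to and farthest from H3K4me2, the 3 just outside the limit, the 3 densest windows, the 3 longest runs and the 5 H3K4me2 peaks nearest to the most near peaks, with ties broken by score. The splits by H3K4me2 width, by distance and by chromosome were not among the planned results and were chosen with values seen. Planned sequence shares and gene names need an mm9 genome and were not run.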

Additional observations from a re-analysis of the deposited data

Results flagged for a closer look

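On chromosome X, which the rule leaves out, 246 of 608 EGFP_OK peaks met its other conditions, or 40.5% (36.5 to 44.5), against 50.1% (49.5 to 50.7) on chromosomes 1 to 19, with a median fold of 7.43 (7.06 to 7.81) and a median distance of 16.3 kb. Chromosome Y and unplaced sequences held 38 EGFP_OK peaks, which were not analysed further. Both are given because they lie outside the comparisons above. For the counts of 246 and 38 themselves, without a control library, the only level to set them against is the 3 that a count of 0 allows. Passing it says nothing about these chromosomes.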

How the results depend on the processing

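Each of 9 results was recomputed under 8 alternatives. Of the 72 values, 40 stayed within the 95% interval of the reported value (for the number of near peaks, within 1.5 times). With EGFP_OK peaks of a score of at least 100, 6524 peaks met the rule, with a median fold of 9.13, a median distance of 11.7 kb, 45.1% within 10 kb of H3K4me2, 21.5% with another near peak within 20 kb, 8.58% next to an H3K4me2 peak with an EGFP_OK summit and 33.8% with an Etv6 or Pax6 peak within 10 kb. Fewer EGFP_OK summits enter that comparison by construction. With H3K4me2 peaks of a score of at least 100, the median distance was 13.5 kb, 40.6% lay within 10 kb, 21.1% and 36.6% were next to H3K4me2 peaks with an EGFP_OK and an Etv6 summit, and 37.2% had an Etv6 or Pax6 peak within 10 kb. The share of all H3K4me2 peaks of that score that hold a summit was not computed, so the shares of 21.1% and 36.6% have no matching background. With partners at most 1 kb away counted as shared, the median distance was 11.8 kb, with 45.03% within 10 kb, 37.0% with another near peak, 28.5% next to H3K4me2 with an Etv6 summit and 31.7% with Etv6 or Pax6 within 10 kb, and with at least 50% of the peak covered the last was 36.2%. With the whole peak outside H3K4me2, the median distance was 12.1 kb, 44.1% lay within 10 kb, 37.2% had another near peak, and the density within 5 kb was 0.804 times that at 45 to 50 kb, against 0.935 as reported and 0.857 to 0.970 under the other alternatives, since summits beside an edge are then barred. With limits of 25 and 100 kb, the median distance was 7.74 and 14.6 kb, 59.9% and 39.7% lay within 10 kb, 35.5% and 39.4% had another near peak, 30.97% and 29.0% were next to H3K4me2 with an Etv6 summit, and 40.0% and 31.6% had Etv6 or Pax6 within 10 kb. Adding chromosome X moved none of the 9. Leaving out a replicate was not possible with 1 library per group. No paired analysis was possible because each group has 1 library. The low number of kept Pax6 tags limits the absence of a Pax6 partner, as given above.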
